A study of Mus musculus with 27 samples.

Results

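C3 is 1 gene of the 55487 in the deposited count table, and its transcript is described here across the 27 mouse retinas of the series. It was chosen by name, and it carries the identifier ENSMUSG00000024164. RNA of whole retinas (100 ng a library, 1 library a mouse, age 9 months) was read by QuantSeq, a 3′ mRNA sequencing kit. The wildtype group (7 mice) was Gne+/+ and C3+/+, and the Gne+/- group (7 mice) had 1 intact copy of Gne and was C3+/+. The C3-/- group (7 mice) was Gne+/+, and the Gne+/- C3-/- group (6 mice) combined both changes. The Gne enzyme catalyses the entry step of sialic acid production. The libraries were sequenced in 2 runs: run 1 held 5, 5, 4 and 4 mice of these groups in that order, and run 2 held 2, 2, 3 and 2. The labels name no transgene, no inducing agent and no mouse line, and do not say which part of C3 the C3-/- allele lacks.

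C3 is the protein on which the classical, lectin and alternative pathways of complement converge. Convertases cut it into C3a, a small peptide read by the receptor C3ar1, and C3b, which attaches to nearby surfaces. Factor I and its cofactors trim surface C3b to iC3b, the ligand of the integrin receptor that contains Itgam, and surface C3b also leads to cleavage of C5 and to the membrane attack complex. Most plasma C3 comes from the liver, but tissues also make their own, and in the nervous system microglia and reactive astrocytes are known sources. Cytokines such as interleukin-1 and interleukin-6 induce the gene through C/EBP and NF-kB factors.

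C3 lies on chromosome 17 from 57203970 to 57228136 (GRCm38, minus strand) and is protein coding. Only 0.24% of this span is shared with another annotated gene (Mir6978), where reads are not assigned to either. The 250 bases before the transcript start are shown because C3 is a classical C/EBP-driven acute-phase gene and the results below ask which genes moved with it. They are RefSeq sequence of GRCm38.p6, chr17:57228137-57228386, read 5′ to 3′ on the minus strand, with matches to the C/EBP letters TTNCNNAA on either strand in capitals.
C3 promoter: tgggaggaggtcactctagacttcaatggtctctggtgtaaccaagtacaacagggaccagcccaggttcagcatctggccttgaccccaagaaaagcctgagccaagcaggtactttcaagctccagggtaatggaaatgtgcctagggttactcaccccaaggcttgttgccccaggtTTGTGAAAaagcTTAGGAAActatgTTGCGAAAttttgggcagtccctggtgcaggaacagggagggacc
The C/EBP letters matched at 3 places that begin 70, 58 and 45 bases before the transcript start, and the last place matched on both strands. Of 32851 promoter windows, each the 250 bases before a start, 36.8% held such a match, so the letters alone are common. The NF-kB letters (GGG, any 2 bases, then TTTCC; 1.41% of windows) were not in the C3 window, which says only that these letters are not in it.

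Total counts ranged from 13.5 to 34.2 M per library. Levels are given as CPM, the count divided by the library size in M, where sizes were scaled by TMM factors to correct for differences in composition. Relations between genes use run-centred log2 CPM, the log2 of CPM with a prior count of 2 minus the mean of the library's run. Gne, the other targeted gene, did not overlap within run between Gne genotypes: in run 1 it stood at 99.2 to 162 CPM in Gne+/+ and 32 to 56.7 CPM in Gne+/- mice, and in run 2 at 43 to 55.5 and 13 to 16.4 CPM. A pair of C3+/+ libraries stood apart before any result was drawn from them. Gne+/- mouse 5 and wildtype mouse 6, both of run 1, were farthest from the median of C3, with run-centred log2 CPM of 0.944 and 0.545. They were also at the far end of the first axis of variation of all genes, with loadings of 0.49 and 0.594, against 0.149 for the next library. The main relations and list medians over the 14 C3+/+ libraries are therefore also given without these 2.

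The retina held C3 transcript at a readily counted level in every C3+/+ mouse. Each of these 14 libraries had between 1306 and 5615 C3 counts, so that counting error alone (CV of 2.77% at the lowest and 1.33% at the highest) was far below the spread between mice. In run 1 the wildtype mice 2, 4, 5, 1 and 6 had 100.5, 132, 173, 188 and 216 CPM, a mean of 162 ± 45.9 (SD, n = 5). The Gne+/- mice 4, 3, 2, 1 and 5 of run 1 had 100.9, 118, 125, 128.5 and 285 CPM, a mean of 151.5 ± 75.4 (SD, n = 5). In both groups the lowest mouse was near 100.5 CPM, and the 5 Gne+/- values consisted of 4 close together and mouse 5 far above them. In run 2 the wildtype mice 7 and 8 had 53.9 and 91.4 CPM, and the Gne+/- mice 8 and 7 had 75.9 and 95.6 CPM. The groups overlapped in both runs.

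**Figure D1:**
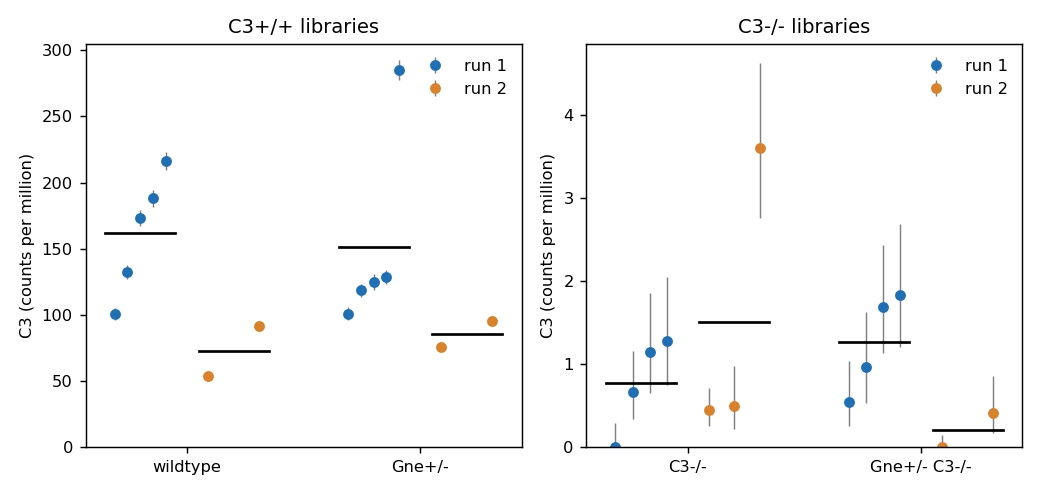
C3 in CPM (vertical axes, different scales) in each library of the 4 genotype groups, with run 1 in blue and run 2 in orange. Grey bars are 2-sided 95% Poisson intervals of the count, horizontal lines are means of a group within a run, and the libraries are ordered by level within each set. C3+/+ libraries lie between 53.9 and 285 CPM and C3-/- libraries between 0 and 3.6 CPM.

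The first comparison asked whether losing 1 copy of Gne altered the C3 transcript where C3 is intact. Over both runs C3 averaged 133 ± 69.7 CPM in Gne+/- (SD, n = 7) and 136 ± 58.5 CPM in wildtype (SD, n = 7). The difference was -0.01 on the log2 scale (SE 0.455, edgeR quasi-likelihood test, adjusted p = 0.997), with a 95% interval from -0.953 to 0.93. The interval spans from 0.517 to 1.91 times the wildtype level, so a change within that range was not detectable in this fit of all groups. With only the 2 groups compared, the difference was 0.00498 with a smaller SE of 0.223, so this limit depends on the model. An exact 2-sided permutation test within run gave p = 0.901 over 1512 relabellings. Of 17409 genes tested in this comparison, 0.00574% (1 gene, Gne) passed the threshold of an adjusted p under 0.05 in edgeR, and 1003 had an unadjusted p under 0.05. Without Gne+/- mouse 5 and wildtype mouse 6 the difference was -0.18 (SE 0.471). No relation of Gne with C3 was detected within runs, with r = -0.01 (permutation p = 0.972) and rho = 0.011 (p = 0.975) over 14 libraries, and r = 0.256 without the 2 libraries.

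C3 differed between the sequencing runs, whereas no difference between the Gne genotypes was detected. The sizes of these 2 differences were not compared by a test. The 4 C3+/+ libraries of run 2 averaged 79.2 CPM and the 10 of run 1 averaged 156.8 CPM. The difference was -0.99 (SE 0.267, edgeR adjusted p = 0.00513), and an exact permutation within genotype gave p = 0.00454 over 441 relabellings. All 4 values of run 2 lay below the lowest value of run 1, 100.5 CPM. The change was common among genes: 46.9% of 15178 genes passed the same test between runs, 21.8% higher and 25.1% lower in run 2. C3 is therefore compared within run, or with run as a term, in what follows.

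In the mice labelled C3-/-, the C3 transcript fell to between 0.191% and 1.7% of its level in C3+/+ mice of the same run and Gne genotype. In C3-/- mice 1, 2, 5 and 6 of run 1 the C3 counts were 12, 0, 16 and 17, and in mice 7, 8 and 9 of run 2 they were 8, 16 and 61. In Gne+/- C3-/- mice 3, 4, 5 and 6 of run 1 the counts were 9, 14, 29 and 26, and in mice 7 and 8 of run 2 they were 7 and 0. No C3-/- library came near the lowest C3+/+ library with its 1306 counts, so every library matched its C3 label.

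The edgeR difference was -6.72 (SE 0.618, adjusted p = 6.08e-07) for C3-/- against wildtype. It was -7.26 (SE 0.673, adjusted p = 7.02e-07) for Gne+/- C3-/- against Gne+/-. Exact permutation tests within run gave p = 0.000794 over 1260 relabellings and p = 0.00132 over 756 relabellings, the smallest that the groups allow with complete separation. Of 17409 genes tested, 0.167% passed in the first of these comparisons and 0.19% in the second. Without C3-/- mouse 9 the first difference was -7.57. The remaining counts of Gne+/- C3-/- and C3-/- could not be told apart, with -0.56 (SE 0.669, edgeR adjusted p = 1, 95% interval -1.943 to 0.826; exact permutation p = 0.879 over 700 relabellings). In that comparison 0.00574% of genes passed (1 gene, Gne; 235 at an unadjusted p under 0.05), and the sign turned without C3-/- mouse 9 (0.269).

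The remaining counts were few but not 0. The 13 C3-/- libraries held 215 C3 counts among 228.7 M in all, and 11 of them had at least 1. C3-/- mouse 2 and Gne+/- C3-/- mouse 8 had none, and 3 counts, the 1-sided 95% limit that a count of 0 allows, correspond to 0.23 and 0.117 CPM in these libraries. As a share of the C3+/+ group with the same Gne genotype and run, the C3-/- mice had 0.472% in run 1 (95% Poisson interval 0.344% to 0.631%) and 1.7% in run 2 (1.36% to 2.1%). The Gne+/- C3-/- mice had 0.805% in run 1 (0.636% to 1.005%) and 0.191% in run 2 (0.0768% to 0.394%). These intervals cover counting error only, since PCR copies were not marked by molecular identifiers.

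C3-/- mouse 9 alone held 61 of the counts, at 3.6 CPM, while the other C3-/- mice lay between 0 and 1.28 CPM. Besides C3, 5 genes passed as lower in C3-/- than in wildtype with a mean under 2% of the wildtype mean, and they differed among themselves in mouse 9. Gm17168 also had an excess there, with 5 counts (3.59% of the run 2 wildtype mean) against 0 in each of the other 6 C3-/- mice. Rps13-ps1 and Tmem181b-ps were lower there (0.271% and 0.217%) than in mice 7 and 8 of the same run, and Mrpl48-ps and Olfr607 had 0 counts. Such counts were not confined to mouse 9. In Gne+/- C3-/- mice 6, 7 and 8, Gm17168 had 5, 6 and 36 counts. Gne+/- C3-/- mouse 8, with 0 C3 counts, also held 432 counts of Tmem181b-ps, 67.8% of the run 2 Gne+/- level. These genes were looked up after their values were seen. The source of the remaining counts was not tested. A 3′ kit reads the end of a transcript, and the labels do not say whether the allele keeps that end.

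No tested neighbour of C3 passed the test for a change with its loss. Of the 6 protein-coding genes within 100 kb, Gpr108, Trip10 and Vav1 were tested, and none passed in the 4 genotype comparisons. Over all genes 0.00574% to 0.19% passed in these comparisons, so the lack of a call is near the background and is no result about the neighbours. For C3-/- against wildtype, Trip10 differed by -0.59 (SE 0.3485) and Vav1, at group means under 1 CPM, by 3.08 (SE 1.29). For Gne+/- C3-/- against Gne+/- they differed by 0.40 (SE 0.360) and 0.41 (SE 1.17). Gpr108, a Golgi protein and the nearest neighbour upstream, had group means of 53 CPM (C3-/-), 59.2 CPM (wildtype), 59.8 CPM (Gne+/-) and 61.2 CPM (Gne+/- C3-/-). Its difference was -0.15 (SE 0.141, edgeR adjusted p = 0.999) for C3-/- against wildtype. The TNF family ligands Tnfsf9, Cd70 and Tnfsf14 on the other side had too few counts to be tested, 39 for Tnfsf9 and 16 for Tnfsf14 over all 27 libraries.

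Among the C3+/+ mice of 1 run and genotype, C3 varied more than most genes of its level. Its residual SD was 0.5 on the log2 scale, a CV of 35.7%. The median residual SD of all tested genes was 0.553, but that median includes many genes with few counts. Among 3720 genes averaging 50 to 300 CPM, 85% had a smaller SD than C3. Without Gne+/- mouse 5 and wildtype mouse 6 the residual SD of C3 was 0.339, and 74.3% of 3749 such genes had a smaller one. The run-centred SD was 0.435 in wildtype and 0.5 in Gne+/-. In bulk retina, a change in the number of C3-producing cells and a change in C3 RNA per cell cannot be told apart.

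This variation was shared with a large part of the transcriptome. With C3 as the predictor and run as a term, 2479 of 15177 genes had a slope past the threshold (16.3%; edgeR quasi-likelihood test, adjusted p under 0.05). Of these, 1060 (6.98%) rose with C3 and 1419 (9.35%) fell as C3 rose. Permutation of C3 within run gave 2062 genes by Pearson's r and 1425 by Spearman's rho. Over all 15177 genes the median r was 0.067, and 54.3% of the values were positive. The slope did not differ detectably between Gne+/- and wildtype for any gene (0 of 15177 past the threshold in edgeR and in limma-voom; 580 at an unadjusted p under 0.05 in edgeR).

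The number of these genes rested on a few mice. It fell to 0 without Gne+/- mouse 5 and wildtype mouse 6, although 1782 genes still had an unadjusted p under 0.05 and the slopes of the 18 genes with the highest and lowest r (below) all kept their sign. Leaving out single mice gave 509 without Gne+/- mouse 5, 1317 without wildtype mouse 6, 1472 without wildtype mouse 2 and between 2033 and 3301 without any other mouse. C3 followed the first axis of variation, which held 21.8% of the variance of the 14 libraries, with r = 0.838 (permutation p = 0.00024, adjusted over 8 library measures 0.00192) and rho = 0.771 (p = 0.00333, adjusted 0.0156). Within the 10 libraries of run 1 r was 0.924, and without the 2 libraries it was 0.677; run 2, with 4 libraries, is too small for a value. With this axis as a term in the model, 0 genes passed and 1056 had an unadjusted p under 0.05. Leaving out the libraries with extreme C3 narrows the predictor, and the axis is correlated with it, so both fits measure slopes less closely. For Pfkl, the gene with the highest r (below), the SE rose from 0.103 to 0.155 and 0.179, with slopes of 0.804, 0.828 and 0.733. A count of 0 therefore does not separate lost relations from lost precision.

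**Figure D2:**
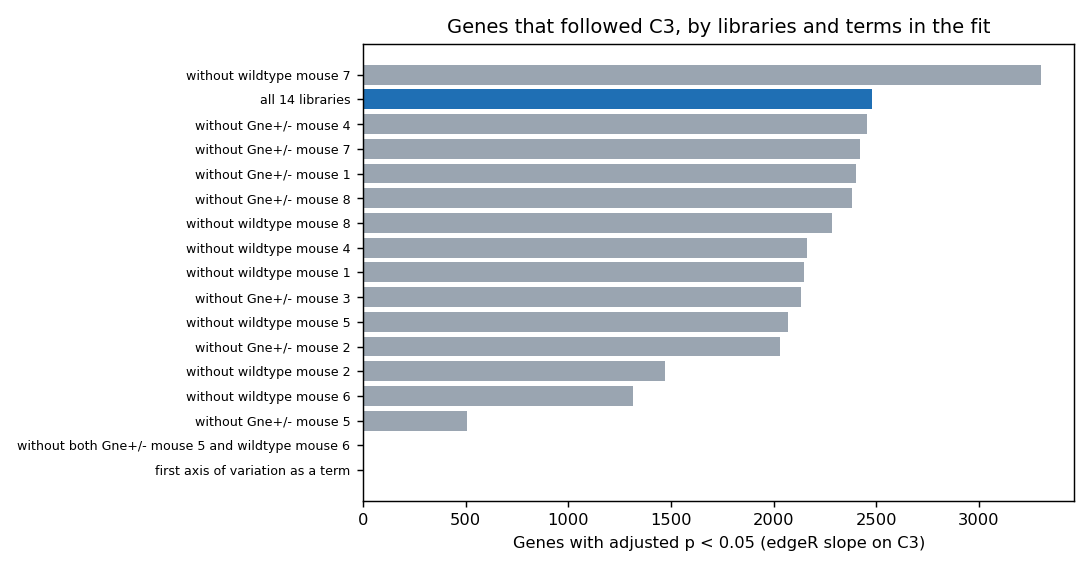
Number of genes with a slope on C3 past the threshold (horizontal axis, edgeR, adjusted p under 0.05) with all 14 C3+/+ libraries (blue, 2479), without single mice, without both libraries that stood apart, and with the first axis of variation as a term. The last 2 bars are at 0, and leaving out Gne+/- mouse 5 gives 509.

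Measures of the libraries moved with C3 as well. The share of counts from mitochondrial genes fell as C3 rose, with r = -0.568 (permutation p = 0.0363, adjusted 0.0726) and rho = -0.662 (p = 0.013, adjusted 0.0261); r was -0.563 without the 2 libraries. Malat1, a nuclear non-coding RNA, gave r = -0.719 (permutation p = 0.00738, adjusted 0.0197) and rho = -0.771 (p = 0.00389, adjusted 0.0156), and r = -0.527 without the 2. Total counts gave r = 0.437 (permutation p = 0.124, adjusted 0.198) and rho = 0.398 (p = 0.161, adjusted 0.258), and r = 0.345 without the 2. Across genes, r with C3 rose with GC content, from a median of -0.036 in the fifth of genes poorest in GC to 0.21 in the richest (-0.005 to 0.162 without the 2 libraries), and the C3 transcript itself has 53.3% GC. Their part in the relations with C3 was not tested, except that 1704 genes passed with the mitochondrial share as a term.

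**Figure D3:**
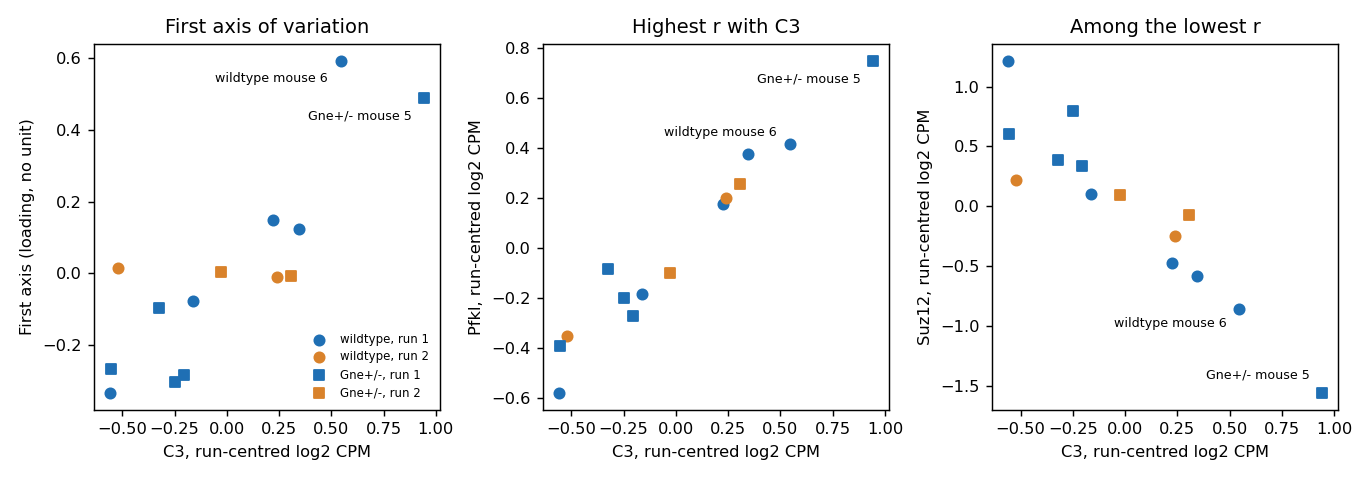
Run-centred log2 CPM of C3 (horizontal axes) in the 14 C3+/+ libraries against the first axis of variation (left, loading without unit), Pfkl (middle) and Suz12 (right, both in run-centred log2 CPM). Circles are wildtype, squares Gne+/-, blue run 1 and orange run 2; Gne+/- mouse 5 has the highest C3 (0.944) and lies at or near the end of each relation.

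The genes most like C3 were taken as the 12 with the highest r among 11091 genes averaging at least 5 CPM, and the 6 with the lowest r stand beside them. Since r chose them, their r and slopes are given as a description. Pfkl, the liver-type phosphofructokinase of glycolysis, was first, with r = 0.976 and rho = 0.952. In run 1 Pfkl stood at 283, 372, 478.5, 549.8 and 566 CPM in wildtype mice 2, 4, 5, 1 and 6, the order of C3 itself. In the Gne+/- mice 4, 3, 2, 1 and 5 it stood at 322, 399, 368, 350.1 and 712 CPM. Mouse 5 was again far above the other 4. Its slope was 0.80 log2 units per log2 unit of C3 (SE 0.103), and r was 0.951 without the 2 libraries and 0.916 with the first axis held fixed. Between C3-/- and wildtype, Pfkl differed by -0.04 (edgeR adjusted p = 0.999).

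The other 11 genes near the top had r from 0.916 to 0.945, among them Snap47, Rnft2, Ntm, Myrip, Top1mt, Stx5a, Anapc11, Xpo7 and Comtd1. Snap47 and Stx5a are SNARE proteins of membrane fusion, and Myrip links Rab27 vesicles to myosin. Top1mt is the mitochondrial topoisomerase and Anapc11 a subunit of the anaphase-promoting ligase. Ntm is a neuronal adhesion molecule and Xpo7 a nuclear transport receptor. Their slopes on C3 ranged from 0.31 (Ntm) to 0.94 (Comtd1), and without the 2 libraries their r ranged from 0.804 (Xpo7) to 0.948 (Comtd1). None of the 12 is a complement gene. Of the Comtd1 span 45.6% overlaps other annotated genes, so its counts are uncertain.

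At the other end were Iws1 (r = -0.955), Ccdc138 (-0.952), Polr1d (-0.945), Bcap29 (-0.930), Mzt1 (-0.929) and Suz12 (-0.928). Iws1 is a transcription elongation factor, Polr1d a subunit shared by RNA polymerases I and III, Mzt1 a part of the gamma-tubulin complex and Suz12 a core subunit of Polycomb repressive complex 2. In run 1 Suz12 stood at 136.6, 63.2, 42.4, 39.3 and 32.5 CPM in wildtype mice 2, 4, 5, 1 and 6, falling in exactly the order in which C3 rose. In the Gne+/- mice 4, 3, 2, 1 and 5 it stood at 89.6, 76.9, 102.1, 74.3 and 19.9 CPM. The mouse with the most C3 had the least Suz12 of all 14. The Suz12 slope was -1.499 (SE 0.185), the r without the 2 libraries was -0.833, and the other 5 slopes ranged from -1.64 (Mzt1) to -1.05 (Polr1d).

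**Figure D4:**
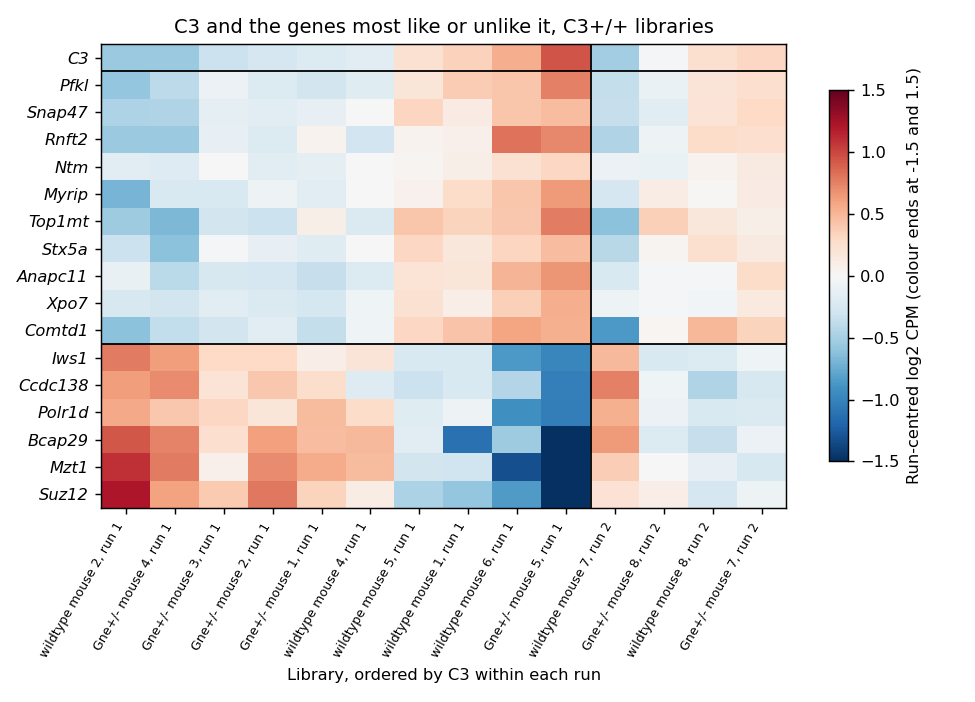
Run-centred log2 CPM (colour, ends at -1.5 and 1.5) of C3, 10 of the 12 genes with the highest r and the 6 with the lowest r (rows) in the 14 C3+/+ libraries (columns, ordered by C3 within run 1 and then run 2). The 10 genes follow the colour of C3 and the 6 below run opposite to it, with the deepest colours in Gne+/- mouse 5 and wildtype mouse 2 at the ends of run 1.

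Pairs of these 18 genes had smaller r, in absolute size, in the C3-/- libraries than in the C3+/+ libraries by which they were chosen. Among the C3+/+ libraries the 66 pairs of the 12 had a median r of 0.858 and the 72 pairs across the 2 sets a median of -0.884, which the choice by r fixes in large part; without the 2 libraries the medians were 0.784 and -0.811. In the 13 C3-/- libraries, which the choice did not use, the medians were 0.296 (46 of 66 pairs positive, the lowest -0.598) and -0.511 (61 of 72 pairs negative, the highest 0.535). Pairs of other genes were not examined. None of the 18 passed in any of the 4 genotype comparisons, where 0.00574% to 0.19% of all genes did. The first axis itself was only partly shared, since its loadings had an r of 0.358, in absolute size, with those of the first axis of the C3-/- libraries and of 0.512 with those of their second.

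The complement genes were examined by their role around C3, with lists that were drawn up with earlier results of these data known. For reference, 16.3% of all genes had a slope past the threshold. The initiators lie upstream of C3. Of 14, 8 had enough counts to be tested, 6 had a positive r, the median was 0.295 (0.081 without the 2 libraries) and 0 slopes passed. The C1q chains C1qa, C1qb and C1qc, made mainly by microglia, gave r of 0.251, 0.357 and 0.408, and these fell to -0.243, 0.053 and 0.374 without the 2 libraries. Masp2, the protease of the lectin pathway, gave r = 0.708 at a mean of only 1.42 CPM, and its slope missed the threshold (edgeR adjusted p = 0.156). The convertase list (C2, C4b and Cfp tested of 5) had a median r of 0.249, and 0 slopes passed; without the 2 libraries the sign of the median turned (-0.066). Other annotated genes overlap 96.1% of the span of C2, which is in the initiator list too, so its counts are uncertain. Cfp, or properdin, which stabilises the alternative convertase, averaged 12.1 CPM and gave r = 0.311, which fell to 0.053 without the 2 libraries.

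The regulators showed no common direction. Of 14, 10 were tested, 7 had a positive r, the median was 0.195 (0.090 without the 2 libraries) and 0 slopes passed. Cr1l, the rodent regulator Crry, gave r = -0.493. Cd46, a membrane cofactor for C3b cleavage, gave r = 0.091, and Serping1, the C1 inhibitor, which acts upstream of C3, gave r = 0.245. The neuronal CUB and sushi proteins Csmd1, Csmd2 and Csmd3 gave r from 0.234 to 0.357. The receptors were mostly below the counting limit: of 6, only C3ar1 and Cr2 were tested. C3ar1, the C3a receptor, averaged 2.29 CPM and gave r = -0.591, with a slope of -2.35 (SE 0.948, edgeR adjusted p = 0.0964). Itgam is listed at 0 in all libraries, but nearly its whole span overlaps other annotated genes, so this is no measure of its level.

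In the terminal list, 4 of 13 genes were tested and 2 rose with C3; the pore-forming C6, C7, C8 and C9 genes and Hc, which encodes C5, had too few counts. Both genes that rose, Clu (clusterin) and Vtn (vitronectin), encode secreted proteins that bind the terminal complex and block its insertion, and both have other roles, Clu as a chaperone and Vtn in the matrix. Vtn had 169, 250.5, 354, 325 and 513 CPM in wildtype mice 2, 4, 5, 1 and 6 of run 1, and 216, 265, 259, 241 and 392.2 CPM in Gne+/- mice 4, 3, 2, 1 and 5. In run 1 the mouse with the most C3 in each group had the most Vtn, and the values of the groups overlapped. Its slope was 0.72 (SE 0.145, edgeR adjusted p = 0.00368), with r = 0.827 (permutation p = 0.00031, adjusted 0.0137) and rho = 0.829 (p = 0.00115, adjusted 0.0264). Its r was 0.755 without the 2 libraries and 0.266 with the first axis held fixed.

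Clu had 316, 548.5, 737, 678 and 972 CPM in the same wildtype mice and 695, 615, 562, 511.5 and 981.5 CPM in the same Gne+/- mice. Wildtype mouse 6 and Gne+/- mouse 5 were the highest. In the other Gne+/- mice of run 1 Clu fell as C3 rose, so the rise in that set rested on mouse 5. The Clu slope was 0.59 (SE 0.157, edgeR adjusted p = 0.0147), with r = 0.724 (permutation p = 0.0052, adjusted 0.0437) and rho = 0.635 (p = 0.03, adjusted 0.136). Its r was 0.456 without the 2 libraries and 0.102 with the first axis held fixed. Cd59a, the membrane inhibitor of the same complex, gave a slope of -0.64 (SE 0.223, edgeR adjusted p = 0.0535).

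**Figure D5:**
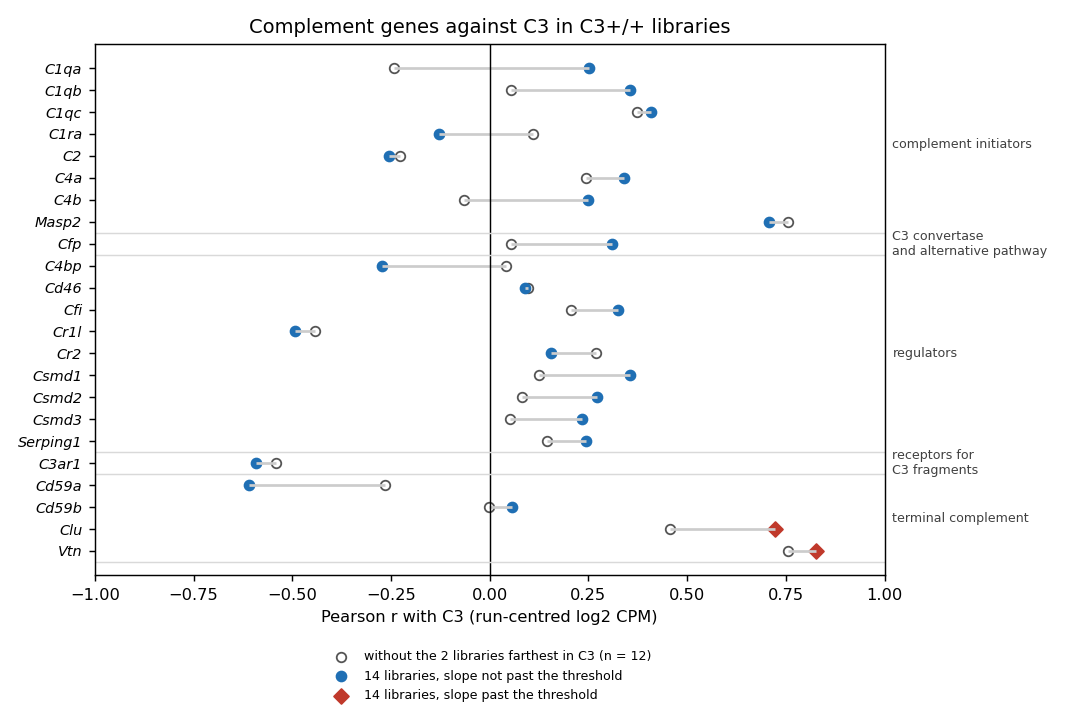
Pearson's r with C3 (horizontal axis, run-centred log2 CPM) for tested complement genes, each shown once and grouped by role, over the 14 C3+/+ libraries (filled) and without the 2 libraries farthest in C3 (open, 12 libraries). Red diamonds mark Clu (0.724) and Vtn (0.827), the genes with a slope past the threshold; C1qa, C1ra, C4b, C4bp and Cd59b change sign or reach 0 without the 2 libraries.

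No other complement transcript passed the test between C3-/- and C3+/+ mice. Of the tested members of the 5 complement lists, 0 passed for C3-/- against wildtype, Gne+/- C3-/- against Gne+/- or Gne+/- against wildtype. Over all genes 0.167%, 0.19% and 0.00574% passed in these comparisons, so a count of 0 is near the background and is no result about complement. For C3-/- against wildtype the list medians were -0.15 for initiators, -0.35 for the convertase list, 0.001 for regulators, 0.56 for receptors and -0.06 for the terminal list, against -0.015 over all genes of the slope test. For Gne+/- C3-/- against Gne+/- they were -0.046, 0.376, 0.129, 0.095 and 0.034 in the same order, against -0.009, so the sign of the convertase median turned. C3ar1 differed by 0.66 (SE 0.713) between C3-/- and wildtype and by -0.06 (SE 0.724) between Gne+/- C3-/- and Gne+/-. These intervals are wide for genes of a few CPM. Clu (-0.05, SE 0.172) and Vtn (-0.03, SE 0.171), the deeper genes, were measured more closely for C3-/- against wildtype, and both edgeR adjusted p were 0.999.

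Genes that control C3 transcription, or that accompany it in inflammation, did not move with it as a group. Over all genes 6.98% of slopes passed upward and 9.35% downward, and the calls in each list are to be read against these shares. Of 15 inducers, 12 were tested, 5 had a positive r, the median was -0.137 (0.032 without the 2 libraries), and 1 slope passed upward and 1 downward. The gene that fell was Irf1, an interferon-induced transcription factor (slope -2.68, SE 0.611, edgeR adjusted p = 0.00687). Other annotated genes overlap 37.6% of its span, so its counts are uncertain. Of the acute-phase and NF-kB targets, 10 of 15 were tested and 3 had a positive r, with a median of -0.23; without the 2 libraries 6 were positive and the median was 0.046. Nfkbia, the NF-kB inhibitor that NF-kB itself induces (slope -1.72, SE 0.352, edgeR adjusted p = 0.00502), and Tnfaip3 (slope -1.31, SE 0.331, edgeR adjusted p = 0.0133) fell as C3 rose, and 0 of the list rose. Of the interferon list, 15 of 19 were tested, 8 had a positive r, the median was 0.124 (0.154 without the 2), and 1 slope passed, upward. Of the reactive astrocyte list, 18 of 29 were tested and 9 had a positive r, with a median of -0.082 (-0.077 without the 2); Amigo2 rose (slope 0.76, SE 0.191), and Fkbp5 (-0.63, SE 0.187) and Vim (-0.73, SE 0.217) fell.

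Markers of the cells that could make C3 gave no single direction. Their calls stand beside 6.98% of all genes that rose and 9.35% that fell with C3. Of 18 microglia and macrophage markers, 15 were tested, 12 had a positive r, the median was 0.278 and 0 slopes passed; the median was 0.053 without the 2 libraries. Their summed level, in counts per M total counts without TMM factors, ran from 48.9 to 82.3 in wildtype and from 50.6 to 108 in Gne+/-. P2ry12 is listed at 0, with nearly its whole span shared with other genes. The 6 tested of 7 retinal astrocyte markers had a median r of -0.415 (-0.255 without the 2), and 1 fell, the water channel Aqp4 (slope -1.02, SE 0.193, edgeR adjusted p = 0.00263). Other annotated genes overlap 36.75% of the Aqp4 span, so its counts are uncertain. Of 10 Mueller glia markers, Rlbp1 rose (slope 0.80, SE 0.150), Aqp4 and Vim fell, and the median r was -0.139 (-0.247 without the 2).

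Among the neuronal lists, cone and bipolar markers had calls in the upward direction alone, and the other 3 had calls in both directions. Over all genes 6.98% rose and 9.35% fell with C3, so 0 falling among 9 or 10 markers is near the background. Of 10 rod markers, 3 rose, among them Gnat1, rod transducin (slope 0.71, SE 0.161), and 3 fell. Of 9 cone markers 3 rose, Opn1sw, Gngt2 and Arr3, with slopes from 0.51 to 0.71, and 0 fell. Other annotated genes overlap 61.8% of the Gngt2 span, so its counts are uncertain. Of 10 tested bipolar markers, 2 rose, among them Trpm1, the channel of ON bipolar cells (slope 0.66, SE 0.130), and 0 fell. Of 9 tested ganglion cell markers, 2 rose and 2 fell. Of 9 tested amacrine markers, Calb2 rose (slope 0.71, SE 0.150) and Gad1 fell (slope -2.01, SE 0.540). As for all genes, 0 of the slopes in these lists passed without Gne+/- mouse 5 and wildtype mouse 6.

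Lists for tissue that borders the retina gave 0 or 1 call each. Over all genes 6.98% rose and 9.35% fell with C3, so such counts in lists this small are no result about these tissues. Of 12 tested pigment epithelium markers 1 rose (Ptgds, slope 0.74, SE 0.239), and of 8 tested fibroblast and scleral markers 1 fell (Mgp, slope -2.13, SE 0.531). Ptgds gave r = 0.598 (permutation adjusted p = 0.131), which fell to 0.097 without the 2 libraries. Of 8 tested pericyte markers 1 fell (Rgs5, slope -1.38, SE 0.318). The ciliary, endothelial, lens and erythrocyte lists had 0 calls among 7, 10, 7 and 2 tested. Lens genes had a median r of -0.223 (-0.274 without the 2). Their summed level, in counts per M total counts without TMM factors, ran from 1.14 to 159 in wildtype and from 4.51 to 1690 in Gne+/-. The labels give no sex; the Y-linked genes Uty and Kdm5d gave r of -0.436 and -0.383, and neither slope passed (edgeR adjusted p of 0.14 and 0.292). The part of any of these cell types in the level of C3 was not tested.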

How the data were processed

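Retinas of 27 mice were analysed, and the unit was the library. The authors deposited unnormalized read counts per gene. The submitters' processing notes name STAR 2.7.3a, featureCounts, Subread 2.0.0 and the build GRCm38 (mm10), while per the file headers featureCounts was version 2.0.3 with annotation of Ensembl release 101. Exon and whole-gene features were counted together, so intronic reads count, with no strand setting and no assignment of reads that overlap several genes, per the file headers. The 27 single tables equalled the series table. No library was a duplicate: over 78 pairs within groups the chi-square per degree of freedom was at least 9.77. Symbols came from a name table for 55141 identifiers. Total counts of 13.5 to 34.2 M give C3 a counting error of 1.33% to 2.77% where it is intact.

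Counts were tested in R 4.3.3 with edgeR 4.0.16 (filterByExpr with a minimum count of 10, TMM factors, robust quasi-likelihood, groups plus run, 17409 genes), with p adjusted by Benjamini and Hochberg and a threshold of 0.05. The slope on C3 was fitted over the 14 C3+/+ libraries with run as a term (15177 genes besides C3), using factors from the full table. Permutation tests within run were exact for C3 alone, and used 100000 resamples for r and rho, which were adjusted over the 15177 genes or the 8 library measures (Python 3.11.15, numpy 2.4.6). Named genes were the 12 highest and 6 lowest in r at a mean of at least 5 CPM, skipping provisional names and pseudogenes (1 skipped among the lowest), beside C3, its neighbours within 100 kb, the complement lists and up to 3 members with the largest r in absolute size of each other list; a few genes so named are left out here. C3, the lists and the tests were chosen with earlier results of these data known. Alternatives were DESeq2 1.42.0, limma-voom (limma 3.58.1), RLE factors, other filters, prior counts and model terms, each run alone (leaving out the run term also left C3 uncentred), and leaving out mice; the terms for the first axis and the mitochondrial share, the call by permuted r, and leaving out Gne+/- mouse 5 and wildtype mouse 6 from the genotype comparisons, the spread and the pairs of named genes were added after seeing the data. The procedure was tested on simulated counts. Labels name a mouse for each library and say nothing of litters.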

Additional observations from a re-analysis of the deposited data

Results flagged for a closer look

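Of 80 sets of values of C3 and the named genes within a genotype group, 8 had a highest or lowest library farther from the others than Dixon's criterion allows. Chance gives about 1 in 20 for independent, normally distributed values. Most sets here pool both runs, and the named genes were chosen by r with C3, so 8 of 80 cannot be set against that rate. C3 itself gave 3 of them: 285.1 CPM in Gne+/- mouse 5, among the 7 mice of both runs and again among the 5 of run 1, and 3.598 CPM in C3-/- mouse 9. In Gne+/- mouse 5, Pfkl (712.2 CPM) and Xpo7 (277 CPM) were also far above the other Gne+/- mice, and Bcap29 (5.941 CPM) was far below them. These are genes chosen for following C3, so they share their library with the C3 value. In the mice without C3, Myrip was high in Gne+/- C3-/- mouse 8 (100.1 CPM) and Ccdc138 was low in C3-/- mouse 6 (11.48 CPM). What set these libraries apart was not tested.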

How the results depend on the processing

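The fall of C3 in the C3-/- groups kept its direction under each alternative that was run. In run 2 alone, with 2 or 3 mice a group, the differences were -5.68 (edgeR adjusted p = 0.556) for C3-/- against wildtype and -8.94 (adjusted p = 0.586) for Gne+/- C3-/- against Gne+/-, and no longer passed. Leaving out single mice gave -7.565 to -6.448, -7.543 to -6.976 and, for run 2 against run 1, -1.098 to -0.806, all past the threshold. Gne+/- against wildtype lay near 0. Its sign turned in run 2 alone (0.253), with only the 2 groups compared (0.00498, SE 0.223) and among leave-one-out fits (-0.267 to 0.098). Gne+/- C3-/- against C3-/- turned sign in run 1 alone (0.718) and ranged from -0.832 to 0.269 on leaving out single mice. Mouse numbers did not pair the libraries: over 31 pairs with the same number the correlation ran from -0.056 to 0.279, and 5 were over 0.1. With the replicate block in place of run, these 2 differences were 0.140 and 0.297, and 0 genes followed C3 (1003 with an unadjusted p under 0.05). The number of genes following C3 was 4833 with no run term and C3 not centred by run, 1425 by rho, 0 without the 2 libraries farthest in C3, 0 with the first axis as a term, and 509 to 3301 on leaving out single mice. It was 3275 in DESeq2, 2751 in limma-voom and 3120 in run 1 alone. In the fit with no run term 2 of the 18 slopes turned sign, that of Ntm (-0.0744) among them. The cause of these changes was not tested. Depth limits genes of a few CPM, such as C3ar1 and Masp2, and 14 mice limit any relation with C3.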
